A study of Homo sapiens with 4 samples.

Results

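The genes described here build the junctions, keratin filaments and surface of epithelial cells. They form a list of 31 genes of adherens junctions, desmosomes, tight junctions, keratins and the epithelial surface, chosen by function, and were looked up among the array's probe sets that carry exactly 1 gene symbol. Of the 31, 28 were found, and 23 reached a log2 value of 5 on at least 1 of the 4 arrays. These 23 are called measured here, and they are among 3588 measured genes out of 8225 on the array. CLDN1, F11R and KRT17 had no matching probe set. DSC3, TJP1, KRT5, KRT15 and KRT20 stayed under 5 on every array. Where a gene had several probe sets, the one with the highest mean over the arrays stands for it and the others are given beside it.

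The cells were LS180, an established human colon carcinoma line. RBM35A+ cells carried a Tet-off construct for RBM35A, the older name of the epithelial splicing regulator ESRP1, and were grown for 6 days or more after doxycycline was withdrawn. Cells called RBM35A- are labelled as the parental cells and were kept in doxycycline, so doxycycline and RBM35A differed together, and whether the parental cells carried the construct is not given in the sources used here. RNA was taken as total RNA with TRIZOL, or as polysomal RNA pooled from the ribosome-loaded fractions of a sucrose gradient of 2 plates, from cells at no more than 80% confluency. The 10 µg of RNA per sample was labelled and hybridized to an Affymetrix HG-U95Av2 array. There was 1 array for each of the 4 combinations, with no replicates, so no difference between RBM35A states within a fraction has a replicate check. The labels call the molecule of the polysomal arrays polyA RNA, while their protocol describes no poly(A) selection. The RNA fraction therefore cannot be told apart from the way the RNA was prepared.

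Epithelial cells hold to each other through cadherins, whose tails bind catenins that link to actin at adherens junctions. At desmosomes the cadherins desmoglein and desmocollin bind plakoglobin and plakophilins, and plakins such as desmoplakin tie them to keratin filaments. Tight junctions seal the space between cells with claudins and occludin, held by ZO proteins. Simple epithelia such as the gut are filled with keratin 8 paired with keratin 18, with keratin 19 and keratin 20 beside them, whereas keratins 5, 15 and 17 are typical of basal or stratified epithelia.

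As context, the upstream sequence of 4 of the genes is printed: neighbouring claudin genes CLDN3 and CLDN4, and JUP and DSG2, whose RBM35A differences in the RNA fractions were furthest apart on the negative side. Each run is the 250 bases before a gene start in RefSeq (GRCh38.p14), 5′ to 3′ on the gene's strand. Capitals mark every match to CACCTG (an E-box), GGGCGG (a GC box), TATAAA or AACCGGTT (a Grainyhead-type motif), on either strand. JUP has 2 starts in the table.
CLDN3, chr7:73770271-73770520, minus strand: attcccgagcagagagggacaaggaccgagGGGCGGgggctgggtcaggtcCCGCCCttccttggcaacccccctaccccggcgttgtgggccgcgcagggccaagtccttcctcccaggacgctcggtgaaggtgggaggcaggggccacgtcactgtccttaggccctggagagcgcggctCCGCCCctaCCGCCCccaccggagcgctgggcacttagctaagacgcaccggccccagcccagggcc
CLDN4, chr7:73830746-73830995, plus strand: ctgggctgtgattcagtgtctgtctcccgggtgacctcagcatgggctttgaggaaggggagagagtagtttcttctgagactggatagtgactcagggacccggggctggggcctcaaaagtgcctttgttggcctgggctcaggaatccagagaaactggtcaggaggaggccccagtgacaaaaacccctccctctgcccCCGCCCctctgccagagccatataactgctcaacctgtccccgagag
JUP, first window, chr17:41786712-41786961, minus strand: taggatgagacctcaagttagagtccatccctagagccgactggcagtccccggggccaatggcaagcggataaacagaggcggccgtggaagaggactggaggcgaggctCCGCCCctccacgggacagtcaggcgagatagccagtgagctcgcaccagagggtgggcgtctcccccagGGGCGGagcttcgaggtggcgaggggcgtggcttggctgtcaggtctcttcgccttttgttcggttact
JUP, second window, chr17:41785977-41786226, minus strand: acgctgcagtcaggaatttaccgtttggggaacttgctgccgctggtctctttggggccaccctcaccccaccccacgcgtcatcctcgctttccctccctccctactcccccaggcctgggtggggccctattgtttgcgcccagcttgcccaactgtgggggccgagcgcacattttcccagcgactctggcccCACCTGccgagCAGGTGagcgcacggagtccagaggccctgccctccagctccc
DSG2, chr18:31497927-31498176, plus strand: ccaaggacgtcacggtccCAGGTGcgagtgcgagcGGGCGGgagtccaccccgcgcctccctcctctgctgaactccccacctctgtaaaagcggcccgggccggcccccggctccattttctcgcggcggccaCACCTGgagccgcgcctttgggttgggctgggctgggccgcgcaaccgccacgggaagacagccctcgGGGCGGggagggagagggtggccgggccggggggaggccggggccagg
The CLDN3 window held 4 GC boxes and the CLDN4 window 1, and neither held the E-box. The second JUP window held 2 E-boxes, which begin 54 and 43 bases before the start, and the DSG2 window held 2 as well. No printed match overlapped another. Of the 23 measured genes, 12 had an entry, with 20 windows in all. The E-box was in 8 of these 20 windows, from 7 genes (CLDN7, DSC2, DSG2, DSP, JUP, OCLN and TJP3), and in 17.5% of all 35116 windows. The GC box was in 14 of the 20 and in 42.6% of all. TATAAA was in 0 of the 20 and 10.7% of all, and AACCGGTT in 0 and 0.117%. Windows of 1 gene can overlap, and a match describes letters only. CDH1, EVPL and KRT19 have no entry.

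Of 12 other epithelial surface and gut genes on the array 10 were measured, while MUC1 and the epithelial transcription factor ELF3 stayed under 5 on every array, as did the catenin CTNND1 at its 1 probe set with a single symbol. KRT8, KRT18, EPCAM, CDH17 and the gut surface antigen GPA33 were measured on all 4 arrays, while KRT20, a keratin of intestinal epithelium, was at 2.33 to 2.44. No probe set was annotated to RBM35A, so its state rests on the labels. Of 15 mesenchymal markers on the array, 3 were measured (CDH11, S100A4 and COL1A1), with VIM, CDH2, FN1, SNAI2, ZEB1 and TWIST1 under 5 on every array, and the summed level of the list lay between 1619 and 1778 linear units. Of 9 haematopoietic markers 1 was measured, HBB (summed level 98.8 to 122), with PTPRC under 5, and of 7 endothelial markers 0 were, with PECAM1 and CDH5 under 5 (33.7 to 35.1). Each array had 33.8% (total RNA) or 34.2% (polysomal RNA) of its 12626 probe sets at 5 or more. Between the polysomal arrays, the RBM35A difference of the control probe sets at the 5′ end was −0.86 (beta-actin) and −0.79 (GAPDH). That of the middle probe sets was −0.44 and −0.33, and that of the 3′ probe sets −0.02 and −0.13. Between the total RNA arrays these differences were −0.05 and −0.03 (5′), 0.27 and −0.11 (middle) and −0.06 and −0.16 (3′). The control probe sets of the transferrin receptor differed between the total RNA arrays by 0.44 (5′), −0.27 (middle) and 0.44 (3′), and were under 5 in polysomal RNA. The part of these control differences in the RBM35A differences below was not tested.

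**Figure D1:**
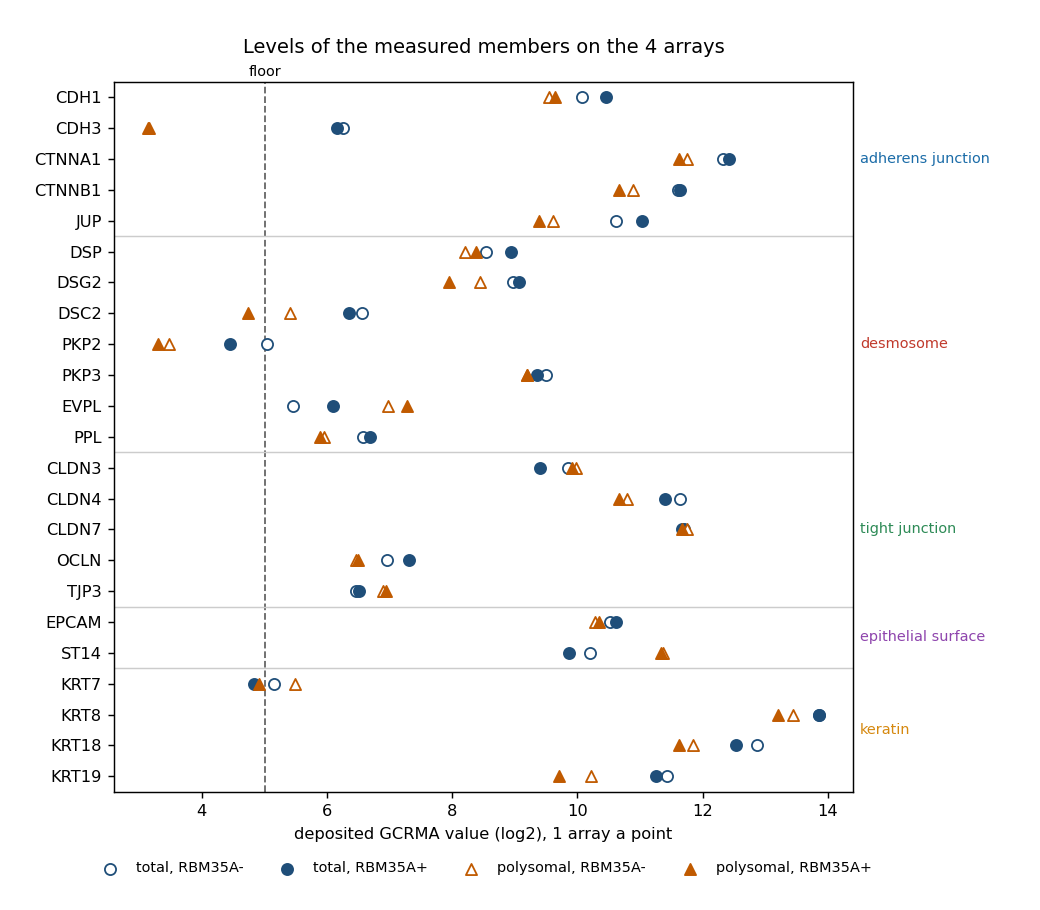
Deposited GCRMA values (log2, horizontal axis) of the 23 measured genes (rows, grouped by structure) on the 4 arrays; circles are total RNA, triangles polysomal RNA, open RBM35A- and filled RBM35A+, and the dashed line is the floor of 5. Within most rows the triangles lie left of the circles, EVPL and ST14 being the clearest exceptions; CDH3 and PKP2 have their polysomal points under the floor, and levels of different genes are not comparable because their probes differ.

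In total RNA, the plakin gene EVPL was the only listed gene at least 1.5-fold higher in RBM35A+ cells, and none (0) was 1.5-fold lower. Of all measured genes 1.54% were 1.5-fold higher and 0.663% lower, and 1 of 23 is too few to set against these shares. Differences are RBM35A+ minus RBM35A- on the log2 scale, and values under the floor of 5 were raised to it. Over the 23 genes the differences ran from −0.44 to 0.63 with a median of 0.01, against a median of 0.00 over 3320 genes; 12 were above 0 and 11 below. KRT7 and PKP2 reached 5 in this fraction only through their RBM35A- array, which fixed their sign; of the 19 genes at 5 or more on every array, 7 were below 0 (36.8%, against 48.5% of 3004 genes). As a measure of error, the difference seen by 1 probe set varied with an SD of 0.20 between probe sets of the same gene. Beyond this SD lay 10 of the 23 genes (43.5%), against 31.4% of all genes. This SD covers probes and not cultures.

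In polysomal RNA, no listed gene (0) was 1.5-fold higher or lower, against 0.767% and 1.3% of all genes. The differences of the 21 genes measured there ran from −0.51 (KRT19) to 0.32 (EVPL), with a median of −0.08. Below 0 lay 15 of the 21 (71.4%), against 42.8% of 3391 genes, whose median was 0.02. DSC2 and KRT7 reached 5 in this fraction only through their RBM35A- array, which fixed their sign; of the 19 genes at 5 or more on every array, 13 were below 0 (68.4%, against 44.2% of 3004 genes). Between probe sets of a gene the SD was 0.19 here, and 9 of the 21 lay beyond it (42.9%, against 32.4% of all genes). All 4 measured keratins and 3 of the 4 adherens junction genes measured in this fraction were on the lower side.

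**Figure D2:**
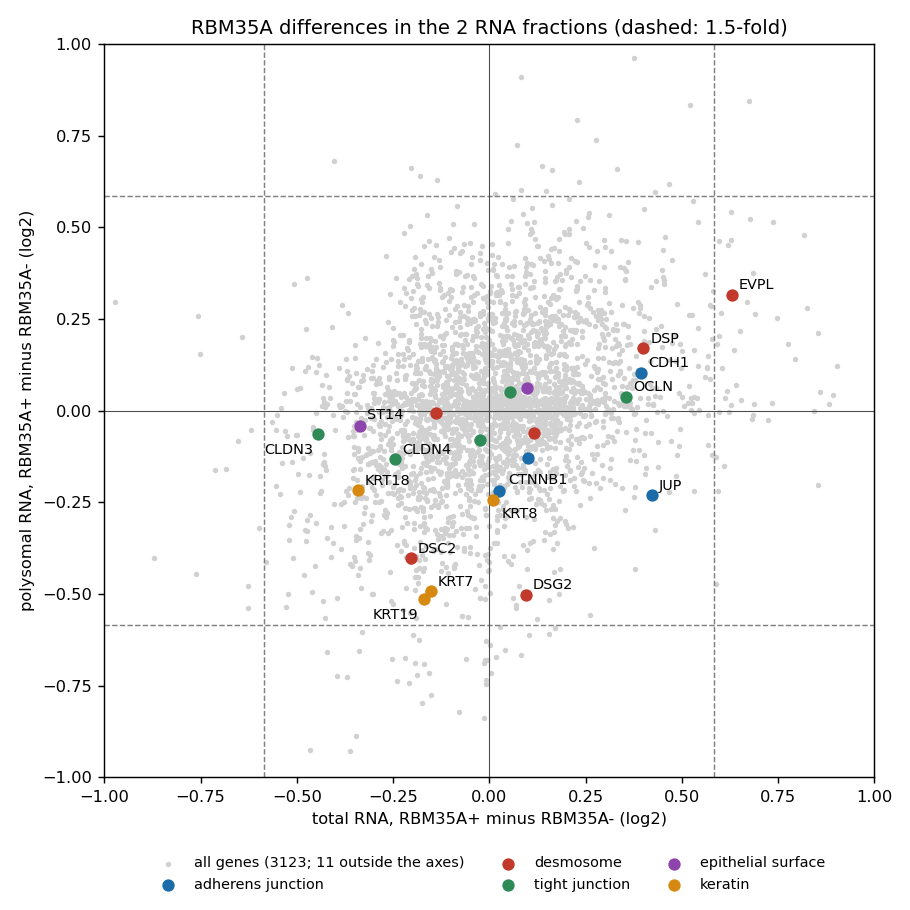
RBM35A+ minus RBM35A- difference (log2) in total RNA (horizontal) and polysomal RNA (vertical), 1 array per group; coloured points are the 21 listed genes measured in both fractions, grey points all 3123 genes so measured, and dashed lines mark 1.5-fold. EVPL lies beyond the line in total RNA (0.63), JUP lies at the lower right (0.42 and −0.23), and DSG2, KRT7 and KRT19 lie near −0.5 in polysomal RNA.

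Among adherens junction genes, JUP, which encodes plakoglobin, a catenin shared with desmosomes, had opposite differences in the fractions. Its total RNA level was 10.61 in RBM35A- and 11.03 in RBM35A+ cells, and its polysomal level 9.61 and 9.38. It was thus 1.34-fold higher in total RNA (0.42) and 1.17-fold lower in polysomal RNA (−0.23). The difference between these differences was −0.65, against an SD of 0.24 for this quantity between probe sets of a gene. JUP has 1 probe set with a single symbol on the array, so no second reading was used. That probe set carries the suffix for sequence that can be shared with other transcripts. The middle control probe set of beta-actin also had opposite differences, 0.27 in total and −0.44 in polysomal RNA. That of GAPDH was lower in both fractions (−0.11 and −0.33). The part of such differences in the JUP values was not tested.

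CDH1 encodes E-cadherin, the main cadherin of epithelial adherens junctions, and its probe sets disagreed. In RBM35A- and then RBM35A+ cells the chosen one read 10.07 and 10.46 in total RNA, and 9.54 and 9.65 in polysomal RNA. The difference was 0.39 in total and 0.10 in polysomal RNA. The other probe set read 7.54 and 6.60 in total RNA, a difference of −0.94, and 2.67 on both polysomal arrays, under the floor. The mean of both gave −0.27 in total RNA, so the direction for CDH1 depends on the probe set. Both carry the suffix for sequence that can be shared with other transcripts.

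CTNNA1, which encodes alpha-catenin, the link from cadherin to actin, had 6 probe sets. Its chosen one read 12.32 and 12.42 in total and 11.76 and 11.63 in polysomal RNA. The 5 measured probe sets lay between −0.10 and 0.11 in total RNA and between −0.13 and −0.01 in polysomal RNA, all within the SD of 1 probe set, and the sixth was under the floor. CTNNB1, which encodes beta-catenin, also the effector of Wnt signalling, read 11.61 and 11.64 in total RNA and 10.88 and 10.66 in polysomal RNA, with differences of 0.03 and −0.22. CDH3, which encodes P-cadherin and is the direct genomic neighbour of CDH1, read 6.25 and 6.16 in total RNA and lay under the floor in polysomal RNA (3.15 and 3.14), so it has no polysomal difference.

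**Figure D3:**
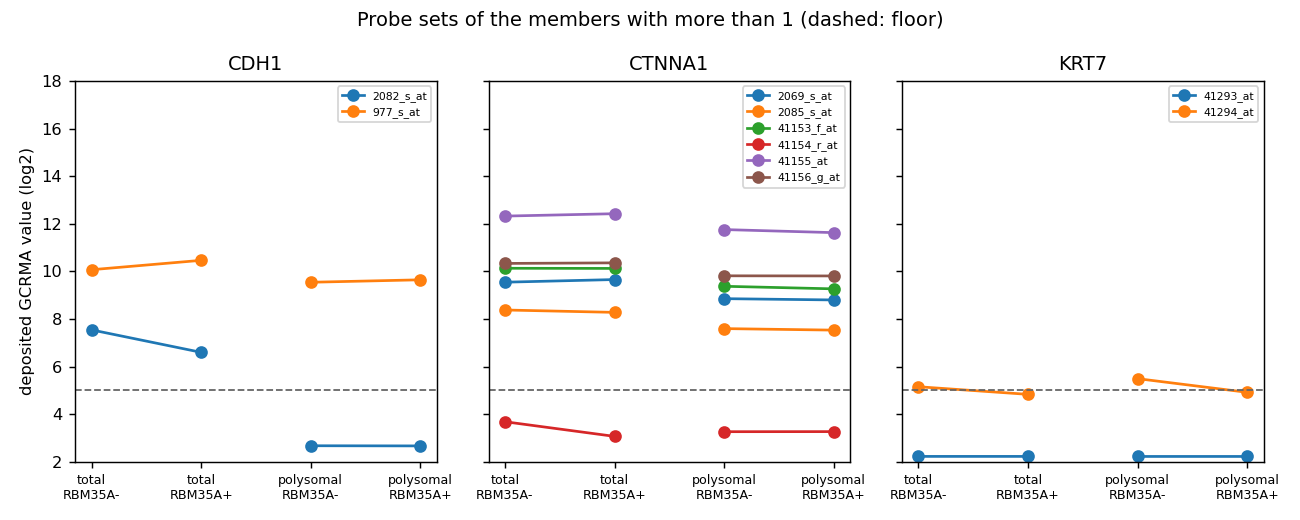
Deposited GCRMA values (log2) of every probe set of the 3 listed genes with more than 1 (CDH1, CTNNA1 and KRT7), with arrays along the horizontal axis, lines joining RBM35A- to RBM35A+ within a fraction and the floor of 5 dashed. The CDH1 probe sets go in opposite directions in total RNA (0.39 and −0.94), while the measured CTNNA1 probe sets run nearly level.

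Among desmosome genes, EVPL and DSP were higher in RBM35A+ cells in both fractions and the desmosomal cadherins were lower in polysomal RNA. EVPL encodes envoplakin, a plakin best known from the cornified envelope of stratified epithelia. It read 5.46 and 6.09 in total RNA and 6.97 and 7.28 in polysomal RNA, 1.55-fold and 1.25-fold higher. Its total RNA values lie near the floor, and with a floor of 6 the difference was 0.09, which ends the 1.5-fold call. DSP, which encodes desmoplakin, the plakin that anchors keratin filaments, read 8.53 and 8.93 in total and 8.21 and 8.38 in polysomal RNA. Its differences were 0.40 and 0.17, and the polysomal one was within the SD of 1 probe set.

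DSG2, which encodes the desmoglein of simple epithelia, read 8.98 and 9.07 in total RNA but 8.44 and 7.94 in polysomal RNA. Its total RNA difference of 0.09 was within the SD of 1 probe set, and its polysomal difference of −0.50 (1.42-fold lower) was not. Its difference of differences, −0.60, was the other listed value beyond 1.5-fold besides JUP: 2 of 21 genes were 1.5-fold lower and 0 higher, against 2.4% and 1.02% of 3123 genes. DSC2, the partnering desmocollin, read 6.55 and 6.35 in total RNA and 5.40 and 4.74 in polysomal RNA. With the last value raised to the floor, its differences were −0.20 and, as a bound, −0.40 or lower. A floor of 4 gave −0.66 in polysomal RNA, past 1.5-fold.

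The remaining desmosome genes differed less. PPL, which encodes periplakin, a partner of envoplakin, read 6.57 and 6.69 in total and 5.95 and 5.88 in polysomal RNA. PKP3, a plakophilin that binds the desmosomal cadherin tails, read 9.50 and 9.36 in total and 9.20 and 9.19 in polysomal RNA. Their differences lay between −0.14 and 0.12 in both fractions, within the SD of 1 probe set. PKP2, another plakophilin, reached 5 only in total RNA of RBM35A- cells, at 5.04, against 4.45 in RBM35A+ cells and 3.48 and 3.29 in polysomal RNA. With a floor of 4 its total RNA difference was −0.59, past 1.5-fold, where the floor of 5 left −0.04.

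Of the tight junction genes in total RNA, claudins were lower or level in RBM35A+ cells and occludin was higher. CLDN3, a sealing claudin of the gut, had the lowest total RNA difference of the listed genes, −0.44 (1.36-fold lower), with 9.85 in RBM35A- and 9.40 in RBM35A+ cells. In polysomal RNA it read 9.98 and 9.91, a difference of −0.06. CLDN4, which lies beside CLDN3 in the genome with no protein-coding gene between them (0), read 11.64 and 11.40 in total and 10.79 and 10.66 in polysomal RNA, differences of −0.24 and −0.13. CLDN7 was level, at 11.70 and 11.68 in total and 11.75 and 11.67 in polysomal RNA. OCLN, which encodes occludin, read 6.95 and 7.31 in total RNA, a difference of 0.35, and 6.46 and 6.50 in polysomal RNA, a difference of 0.04. TJP3, which encodes the scaffold ZO-3, differed by 0.05 in both fractions.

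On the epithelial surface, ST14 encodes matriptase, a membrane serine protease. It read 10.20 and 9.86 in total RNA and 11.38 and 11.33 in polysomal RNA, so that the RBM35A difference was −0.34 in total RNA and −0.04 in polysomal RNA. EPCAM, the epithelial cell adhesion molecule, read 10.52 and 10.62 in total and 10.28 and 10.35 in polysomal RNA. Its differences of 0.10 and 0.06 were within the SD of 1 probe set.

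The keratins were level or lower in RBM35A+ cells. KRT19, a small keratin without a tail domain, read 11.43 and 11.26 in total RNA and 10.21 and 9.70 in polysomal RNA, differences of −0.17 and −0.51. KRT18 read 12.87 and 12.53 in total and 11.84 and 11.63 in polysomal RNA, differences of −0.34 and −0.22. Its filament partner and direct genomic neighbour KRT8 read 13.86 on both total RNA arrays and 13.45 and 13.21 in polysomal RNA, a difference of −0.24. In total RNA this pair thus differed by 0.01 (KRT8) and −0.34 (KRT18). Probe sets of KRT8 and KRT18 may also bind transcripts of their processed pseudogenes, so these values are uncertain as to gene. KRT7, a keratin of ducts and glands, was near the floor, at 5.15 and 4.83 in total and 5.49 and 4.92 in polysomal RNA, and its second probe set was under the floor throughout.

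A model with RBM35A state and RNA fraction as additive terms was fitted to all 3588 genes with limma. With 1 residual degree of freedom, taken up by the interaction, its p-values ask whether a difference had a like size in both fractions or both states. They say nothing of how cultures vary. For RBM35A state, 0 listed genes and 0 genes in all (0% in each direction) had an adjusted p under 0.05 with limma, and the smallest adjusted p over all genes was 0.369. Unadjusted, 369 genes (10.3%) had p under 0.05, of which 199 were higher and 170 lower. Of the 23 listed genes 6 were among them: EVPL (mean difference 0.47, SE 0.12) and DSP (0.29, SE 0.11) on the higher side. On the lower side they were KRT19 (−0.34, SE 0.12), KRT7 (−0.32, SE 0.12), DSC2 (−0.30, SE 0.11) and KRT18 (−0.28, SE 0.10), all with limma adjusted p between 0.386 and 0.462. Values of KRT7 and DSC2 include floored arrays.

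Most junction and keratin transcripts had lower values in polysomal than in total RNA. Of the 19 listed genes at 5 or more on every array, 14 were lower in polysomal RNA of RBM35A- cells, with a median of −0.49, against 44.9% and a median of 0.09 over 3004 genes. In RBM35A+ cells 15 of the 19 were lower, with a median of −0.74, against 45.0% and a median of 0.08. At 2-fold, 3 of the 19 were lower and 2 higher in each state. JUP and KRT19 were lower in both states, KRT18 in RBM35A- and DSG2 in RBM35A+ cells, and EVPL and ST14 were higher. Of the 3004 genes, 7.32% were lower and 13.2% higher in RBM35A- cells, and 7.69% and 13.5% in RBM35A+ cells. With genes under 5 on some arrays included, 5 of 23 were 2-fold lower and 2 higher in RBM35A- cells, against 8.02% and 14% of all genes, and 5 of 21 were lower and 2 higher in RBM35A+ cells, against 8.06% and 14.4%. The added lower genes are CDH3, which reached 5 only in total RNA so that its sign was fixed, and DSC2. The total and polysomal arrays were normalized apart, and the median level of the measured genes was 0.19 (RBM35A-) and 0.21 (RBM35A+) higher in polysomal RNA. With each array centred on that median, 6 listed genes were 2-fold lower and 1 higher in RBM35A- cells, and 11 lower and 1 higher in RBM35A+ cells. The background moved the same way, to 11.6% lower and 10.6% higher of all genes in RBM35A- and 12.2% lower and 10.5% higher in RBM35A+ cells. The comparisons in the 2 cell states are not independent of the RBM35A differences above, since they use the same arrays.

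The genes with the lowest polysomal minus total values came from several structures. JUP stood at −1.002 in RBM35A- and −1.65 in RBM35A+ cells (3.15-fold lower), and KRT19 at −1.22 and −1.56. DSC2 stood at −1.15 and, with a floored value, at −1.35 or lower. CDH3 stood at −1.25 and −1.16, both bounds, since its polysomal values were under the floor. KRT18 passed 2-fold in RBM35A- cells (−1.03 and −0.90) and DSG2 in RBM35A+ cells (−0.54 and −1.13).

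EVPL and ST14 went the other way. EVPL was higher in polysomal than in total RNA, by 1.51 in RBM35A- cells and by 1.19 in RBM35A+ cells, and ST14 was 1.18 and 1.47 higher. TJP3 was 0.43 and 0.42 higher and CLDN3 0.13 and 0.51 higher. CLDN7 lay at 0.05 and −0.01. With centred arrays CLDN3 lay at −0.06 in RBM35A- cells, and CLDN7 at −0.14 and −0.21, so their direction depends on the scaling.

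**Figure D4:**
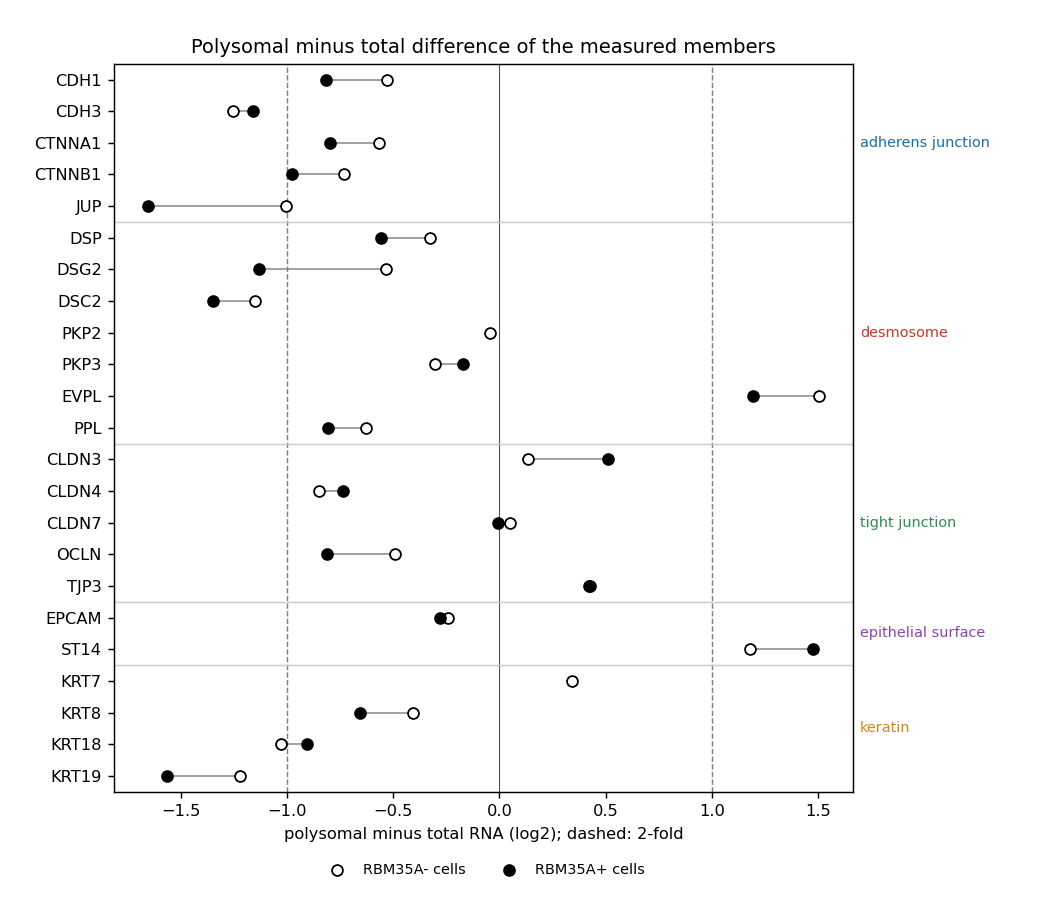
Polysomal minus total RNA difference (log2, horizontal axis) of the measured genes in RBM35A- (open) and RBM35A+ cells (filled), 1 array per group, with dashed lines at 2-fold and a line joining the 2 states of a gene. JUP (−1.002 and −1.65) and DSG2 (−0.54 and −1.13) have the longest lines, EVPL and ST14 lie above 1 in both states, and the values of CDH3, the RBM35A- value of PKP2 and the RBM35A+ value of DSC2 are bounds because of the floor.

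For the RNA fraction the limma fit gave 17 of 23 listed genes an adjusted p under 0.05, 14 of them lower and 3 higher in polysomal RNA (EVPL, ST14 and TJP3). Over all genes 27.4% were lower and 38.5% higher at that threshold. The lower calls include CDH3, whose polysomal values were both set to the floor, which fixed its sign and lowers its residual, and DSC2 with 1 floored value. Among the 19 genes at 5 or more on every array, limma called 12 lower and 4 higher, with 28.9% and 38.9% of 3004 genes. With no filter on low values, 6 of 28 listed genes were called (5 lower and 1 higher, against 6.16% and 9.46% of 8225 genes), in a fit for which limma warned that its variance estimate is unreliable. Among listed genes with no floored value the mean differences ran from −1.39 for KRT19 (SE 0.12, adjusted p = 0.00014 with limma) to 1.35 for EVPL (SE 0.12, adjusted p = 0.00014 with limma). Control probe sets also differed by fraction: polysomal minus total values were −4.91 for the 5′ and −0.29 for the 3′ probe set of beta-actin, and −2.21 and −0.15 for those of GAPDH. Those of the transferrin receptor were low along the transcript, at −3.91 (5′), −4.60 (middle) and −4.12 (3′) on the deposited values, with polysomal values under 5. Where along their transcripts the probe sets of the listed genes lie was not used here, and the part of these control differences in their values was not tested.

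For most listed genes the RBM35A difference was lower in polysomal than in total RNA. This difference of differences had a median of −0.23 over 21 genes and lay below 0 for 16 of them (76.2%), against a median of 0.00 and 49.5% of 3123 genes. Over the 19 genes at 5 or more on every array it lay below 0 for 14 (73.7%, against 49.5% of 3004 genes). Behind JUP and DSG2 came KRT7 (−0.34, with floored values in both RBM35A+ arrays) and KRT19 (−0.34), OCLN (−0.32), EVPL (−0.31) and CDH1 (−0.29). The CDH1 value is that of its chosen probe set. The mean of both CDH1 probe sets gave −0.27 in total and 0.05 in polysomal RNA, so its sign here depends on the probe set. CLDN3 (0.38) and ST14 (0.29) were highest, both lower in total RNA of RBM35A+ cells and nearly level in polysomal RNA.

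Of 86 other genes of the same structures, 64 were on the array and 28 measured. In total RNA 2 of the 28 were 1.5-fold higher in RBM35A+ cells and 0 lower, against 1.54% and 0.663% of all genes. The 2 higher genes were LLGL2, a cell polarity protein of the basolateral side (8.11 to 8.89, a difference of 0.78), and PLEC. PLEC encodes plectin, a plakin of hemidesmosomes (9.99 to 10.62, 0.63, with 0.02 at its other probe set near the floor). In polysomal RNA 0 of the 28 passed 1.5-fold in either direction, against 0.767% higher and 1.3% lower of all genes. LLGL2 and PLEC differed there by 0.18 and 0.02. The lowest there were the surface glycoprotein CEACAM5 (9.56 to 8.99, −0.56) and the plakophilin-related PKP4 (6.62 to 6.11, −0.51), and the highest were the nectin NECTIN2 (0.34) and the actin linker VCL, or vinculin (0.33). PRSS8, which encodes prostasin, a serine protease of the same epithelial surface as matriptase, was at −0.55 in total and −0.21 in polysomal RNA. The 28 genes had 13 below 0 in polysomal RNA (46.4%, against 42.8% of all genes) and a median of 0.02. Their polysomal minus total median was 0.19 in RBM35A- and 0.13 in RBM35A+ cells. At 2-fold, 4 of the 28 were higher and 1 lower in RBM35A- cells, against 14% and 8.02% of all genes. In RBM35A+ cells 4 were higher and 3 lower, against 14.4% and 8.06%. Higher in both states were PNN (2.74 and 2.54), LLGL2 (2.10 and 1.51), NECTIN2 (1.59 and 2.13) and PRKCI (1.43 and 1.50). The PRKCI values are those of its chosen probe set, and another measured PRKCI probe set gave 0.74 and 0.69. Yet another, with the suffix for shared sequence, gave −0.79 and −1.09, so the direction for PRKCI depends on the probe set. LGALS4 was lower in both states, and GPA33 (−1.43) and PLEC (−1.14) in RBM35A+ cells. The 10 surface genes among the 28 had medians of −0.16 and −0.26, with LGALS4 at −1.06 and −1.43. At their chosen probe sets the 5 tight junction genes, PRKCI among them, all lay above 0. For the difference of differences, 2 of the 28 were 1.5-fold lower (PLEC, −0.61, and LLGL2, −0.59) and 0 higher, against 2.4% and 1.02% of 3123 genes. Below 0 lay 17 of the 28 (60.7%, against 49.5% of 3123 genes), with a median of −0.14, so these related genes also leaned to the lower side. Of the 10 surface genes 7 lay below 0, with a median of −0.22. The only other keratin measured, KRT10, differed by −0.32 in total and −0.24 in polysomal RNA.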

How the data were processed

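Values were deposited by the authors on a log2 scale and came from GCRMA (the submitters' processing notes); a GCRMA version and a genome build are not given in the sources used here. Sorted values matched within each pair of arrays of 1 fraction (to 6.61e-06) and differed between pairs by up to 0.227, so each pair was quantile normalized apart, which would remove a shift of most genes between RBM35A states.

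Of 12626 probe sets, 67 were controls; 10943 had 1 symbol in the platform annotation (10934 updated by gene ID through RefSeq, GRCh38.p14, names only), 546 several and 1070 none. The probe set with the highest mean represented a gene. Values under 5 were raised to 5, genes at 5 or more on 1 array were kept, and a pair with both values under 5 gave no difference. The pooled SD between probe sets of a gene served as the error. State and fraction were fitted with limma 3.58.1 in R 4.3.3 (lmFit, eBayes, Benjamini-Hochberg adjustment over all genes), tested on simulated data. The named genes were all listed genes and, of other lists, those past the fold, some of the highest or lowest, and markers of cell identity. The genes and lists were chosen with earlier results of these data known. Other floors, filters, probe set rules and scalings were tried.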

Additional observations from a re-analysis of the deposited data

Results flagged for a closer look

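In RBM35A+ cells JUP, which encodes plakoglobin, was higher in total RNA (0.42) and lower in polysomal RNA (−0.23), each by more than the SD between probe sets of a gene, so the single arrays of the fractions moved in opposite directions. The difference of differences was −0.65. It rests on 1 array per group and on 1 probe set, which carries the suffix for shared sequence, and the difference was not tested. Opposite directions were also seen at the middle control probe set of beta-actin (0.27 in total and −0.44 in polysomal RNA). The middle probe set of GAPDH was lower in both (−0.11 and −0.33).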

How the results depend on the processing

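With 1 array per group, leaving out an array would remove its group. The labels give no replicate numbers to block on, and the pairing of RBM35A states within a fraction is that of the limma fit. Of 938 values of single listed genes under the alternatives, 916 moved by less than the SD of 1 probe set, 22 by more, and 0 called values reversed. Many of the 916 could not move, so this count is no measure of stability. The filters only keep or drop genes, the probe set rules leave genes with 1 probe set unchanged, and a floor leaves values above it unchanged. In total RNA the 1 gene higher by 1.5-fold became 0 with a floor of 6, and the 0 lower became 1 with a floor of 4 or none (PKP2). In polysomal RNA the 0 lower became 1 with a floor of 4 or none (DSC2). For polysomal minus total RNA in RBM35A- cells, the 2 genes higher by 2-fold became 1 with a floor of 6 and 1 with centred arrays, and the 5 lower became 3 with a floor of 6 and 3 when every array had to reach 5. In RBM35A+ cells the 2 higher became 1 with centred arrays, and the 5 lower became 3 with a floor of 6, 3 when every array had to reach 5 and 11 with centred arrays. The 2 genes whose difference of differences was 1.5-fold or more on the lower side became 1 without probe sets of shared sequence, a setting that leaves out the JUP probe set. The 17 calls of the limma fit for fraction became 6 with no filter on low values, where most residual variances were 0 and limma warned that its estimate is unreliable. The medians over listed genes moved by less than the SD of 1 probe set under every alternative run. Depth in reads does not apply to arrays, and levels near the floor limit EVPL, DSC2, PKP2, CDH3 and KRT7.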
